A study of Oryza sativa with 6 samples.

Results

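The distal cluster of chromosome 11 was taken as all 177 loci of the deposited table whose identifier starts with LOC_Os11g and whose locus number lies from 45400 to 47750, out of 46732 loci in all. The range was drawn around an excess of loci that differ between the lines in these same libraries, so the differences below describe the loci and carry no test of their own. NIL-qigl1HD385 and NIL-qIGL1NIP are near-isogenic lines of rice (Oryza sativa), called after alternative alleles at qIGL1, a locus for grain length, and the labels give the genotype of both as wild type. RNA-seq of young panicles 8 to 10 cm long was made from 3 libraries per line, and the design asks which genes differ in expression between the lines. The labels name no treatment, no plant age and no chromosome segment, and separate plants are not mentioned for the 3 libraries of a line, so the spread between them may be technical. No panicle marker could be checked, because the files pair no identifier with a gene name.

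Near-isogenic lines are bred by repeated backcrossing to share most of the genome and to keep a donor segment around a chosen locus. Expression differences between such lines can then lie in the segment itself or anywhere in the genome. The distal long arm of rice chromosome 11 is known for tandem clusters of disease resistance genes, above all nucleotide-binding leucine-rich repeat and receptor-like kinase genes, whose number and sequence vary between rice varieties. Which of the 177 loci belong to those families is not stated in the files, and 0 of the 177 identifiers matched the RefSeq gene table of assembly ASM3414082v1, so the loci are given by identifier, without names, roles, sequences or base coordinates.

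The deposited values are RPKM, reads scaled to the length of the gene model and the size of the library. The whole reads behind them could be recovered, with library totals of 47033599, 48329989 and 44989202 reads for NIL-qigl1HD385 and 52466060, 47293969 and 43536754 reads for NIL-qIGL1NIP. The 177 loci held 0.192 to 0.217% of the reads of a NIL-qigl1HD385 library and 0.154 to 0.171% of those of a NIL-qIGL1NIP library. A line is said to express a locus at a mean of at least 0.5 RPKM over its 3 libraries. Since panicles are mixed tissue, fewer cells of an expressing type and less RNA per cell cannot be told apart in any of these values. Reads count only where they match a gene model, so a line lacking a locus or differing in its sequence could also show few or none. Whether this holds at any of the loci was not tested, and "expressed" below refers to these values only.

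Most of the 177 loci were under 0.5 RPKM in both lines, and among the others expression in NIL-qigl1HD385 alone was the most common state. NIL-qigl1HD385 alone expressed 33 loci and NIL-qIGL1NIP alone 3, while 24 were expressed in both lines and 117 in neither. Within the range 18.6% of loci were expressed in NIL-qigl1HD385 only, 1.69% in NIL-qIGL1NIP only and 13.6% in both. Over the whole table these shares were 1.5%, 1.77% and 47.6%, and on the rest of chromosome 11 (3180 loci) they were 1.45%, 2.04% and 37.8%. The range was chosen for such loci, so nothing is read from the first share.

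**Figure D1:**
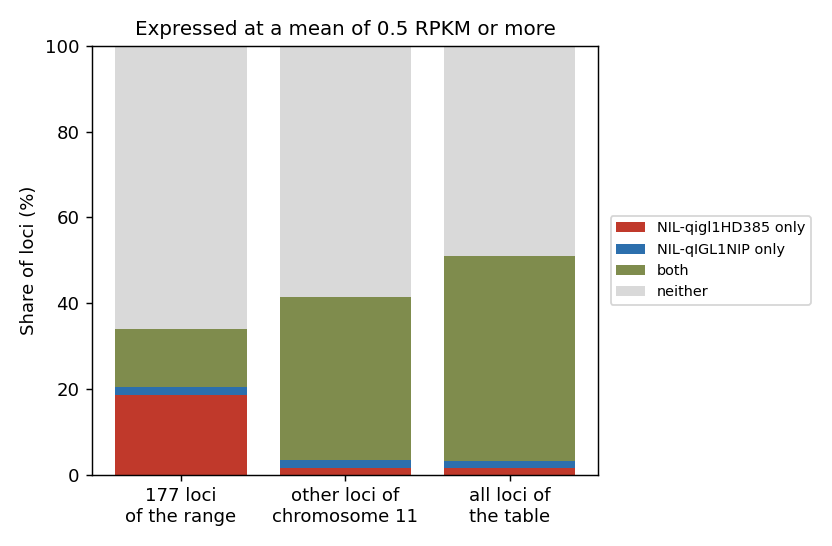
Share of loci (%, vertical axis) expressed at a mean of at least 0.5 RPKM in NIL-qigl1HD385 only, NIL-qIGL1NIP only, both lines or neither, for the 177 loci of the range, the other loci of chromosome 11 and the whole table. Expression in NIL-qigl1HD385 only makes up 18.6% of the range and 1.5% of the table, and expression in neither line 66.1% and 49.1%.

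Of the 33 loci expressed in NIL-qigl1HD385 only, 27 (81.8%) had a mean under 0.1 RPKM in NIL-qIGL1NIP, against 10.6% of the 699 loci of that class in the whole table, and 15 (45.5%) had 0 reads in all 3 NIL-qIGL1NIP libraries, against 4.29%. The 699 include the 33. On the rest of chromosome 11, 3 of the 46 loci of that class (6.52%) averaged under 0.1 RPKM in NIL-qIGL1NIP and 0 had 0 reads there. Of the 3 loci expressed in NIL-qIGL1NIP only, 1 averaged under 0.1 RPKM in NIL-qigl1HD385 and 0 had 0 reads there, where the shares of the 825 loci of that class in the table were 15.4% and 4.61%. The reads of the 33 loci added up to 100255 in NIL-qigl1HD385, against 659 in NIL-qIGL1NIP. The 18 of them with reads in NIL-qIGL1NIP had 2 to 162 of them. The level of the 33 loci in NIL-qigl1HD385 ran from 0.523 to 164 RPKM with a median of 2.41 RPKM, against a median of 0.66 RPKM for the 699 such loci of the whole table. The coefficient of variation between the 3 NIL-qigl1HD385 libraries had a median of 13.4% over the 33 loci and 37.2% over the 699. Their recovered gene models had a median length of 1803 bases, close to the 1895 bases of the 24 loci expressed in both lines, where the 699 loci had a median of 960 bases. By these medians the 33 loci were higher in level, less variable between libraries and longer than the 699. The range was drawn around loci that differ in these libraries, which can favour high and even levels. Nothing is therefore read from this contrast, and none of these differences was tested.

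To find neighbours that differ together, a locus expressed in at least 1 line was said to differ when its 3 values in one line all lay beyond the 3 of the other and the difference on log2(RPKM + 0.5) was at least 2-fold. Of 60 such expressed loci, 31 were higher in NIL-qigl1HD385 and 4 were lower. Over the 23786 expressed loci of the table the rule held for 1.05% in the higher and 1.75% in the lower direction. The median log2 difference of the 60 loci was 1.21, against 0.02 over the 23786. A limma fit over the whole table (adjusted p under 0.05, Benjamini-Hochberg) tested 54 of the 177 loci and called 27 higher, all among the 31, and 0 lower, where 0.375% and 0.358% of the 23181 tested loci were called. Without adjustment 30 were higher and 4 lower at a limma p under 0.05, against 9.79% and 7.2% of all tested loci. Limma voom on the recovered reads, at an adjusted p under 0.05, called 25 higher and 0 lower, against 0.289% and 0.259%. The loci were chosen from this contrast, so these counts only describe them.

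**Figure D2:**
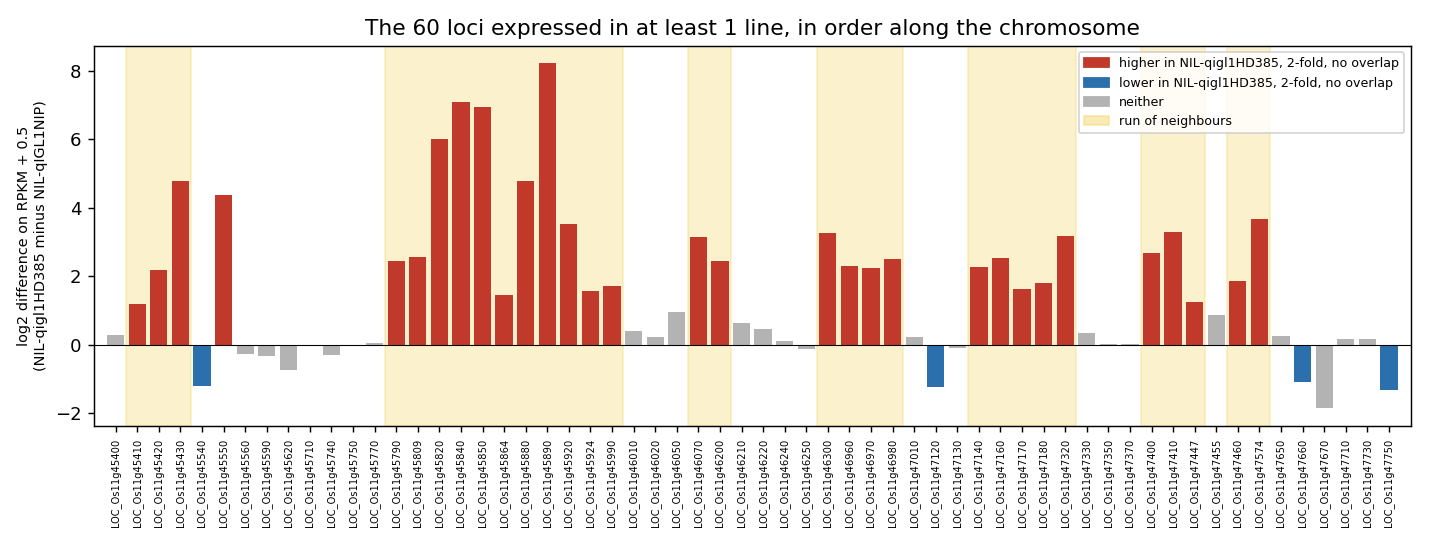
Log2 difference on RPKM + 0.5 (NIL-qigl1HD385 minus NIL-qIGL1NIP, vertical axis) of the 60 loci expressed in at least 1 line, in order of locus number. Red bars are higher and blue bars lower in NIL-qigl1HD385 by 2-fold without overlap, grey bars are neither, and shading marks the 7 runs of 2 or more neighbours, all of them red.

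With loci expressed in neither line stepped over, 30 of the 31 higher loci fell into 7 runs of 2 or more consecutive expressed loci. The remaining one, LOC_Os11g45550, stood alone between loci that were not higher. No run was lower in NIL-qigl1HD385 with all 6 libraries. Without NIL-qIGL1NIP replicate 2 the range held 8 runs with 32 loci, and 5 loci were lower in place of 4. The added lower locus, LOC_Os11g47670, lies next to the lower LOC_Os11g47660. By the same rule the whole table held 50 runs, of which 12 had 3 or more loci, 5 of these 12 in the range. The longest run in the range had 11 loci while the longest elsewhere had 5. At a pseudocount of 1 these lengths were 5 and 4, at a 4-fold limit 5 and 3, and with loci expressed in neither line ending a run 7 and 4. In the range, 20 loci in 6 runs were left when loci expressed in neither line ended a run. At an expression limit of 0.1 RPKM, 22 loci in 5 runs were left.

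The range opened with LOC_Os11g45400, expressed in both lines. It had 3.115, 2.873 and 2.642 RPKM in NIL-qigl1HD385, against 3.203, 1.841 and 1.977 RPKM in NIL-qIGL1NIP, and the libraries overlapped. The 2 loci just before the range did not differ by the rule either: LOC_Os11g45350 averaged 0.548 ± 0.183 RPKM in NIL-qigl1HD385, against 0.430 ± 0.227 RPKM in NIL-qIGL1NIP, and LOC_Os11g45390 0.0168 ± 0.0146 and 0.0310 ± 0.0334 RPKM in the same order (SD, n = 3 each).

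The first run followed at once with LOC_Os11g45410, LOC_Os11g45420 and LOC_Os11g45430. LOC_Os11g45410 was expressed in both lines at different levels, with 5.20, 5.89 and 5.42 RPKM in NIL-qigl1HD385, against 1.94, 2.37 and 2.19 RPKM in NIL-qIGL1NIP, a log2 difference of 1.17 (SE 0.12). Its neighbour LOC_Os11g45420 had 1.74, 1.94 and 1.59 RPKM in NIL-qigl1HD385 and 0 reads in every NIL-qIGL1NIP library. LOC_Os11g45430 had 16.5, 12.2 and 14.6 RPKM in NIL-qigl1HD385, against 0, 0 and 0.129 RPKM in NIL-qIGL1NIP, the last from 2 reads. The run thus went from a partial difference to one of reads against almost no reads within 3 neighbouring loci. Summed, it held 21.7 ± 1.72 RPKM in NIL-qigl1HD385, against 2.21 ± 0.235 RPKM in NIL-qIGL1NIP (SD, n = 3), most of the second sum from LOC_Os11g45410.

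A stretch of 10 loci expressed in neither line came next, LOC_Os11g45440 to LOC_Os11g45530. It held 56 reads in NIL-qigl1HD385 and 0 in NIL-qIGL1NIP over all 3 libraries, with 7 loci at 0 in all 6 libraries. Just after it, 2 neighbours differed in opposite directions. LOC_Os11g45540 had 2.04, 1.31 and 3.25 RPKM in NIL-qigl1HD385, against 5.65, 7.14 and 4.06 RPKM in NIL-qIGL1NIP, a log2 difference of -1.21 (SE 0.31). LOC_Os11g45550 had 8.97, 11.03 and 9.63 RPKM in NIL-qigl1HD385 and 0 reads in NIL-qIGL1NIP. Its 612 reads in NIL-qigl1HD385 place it at least 208-fold higher there, taking the floor of 3 reads over the 3 NIL-qIGL1NIP libraries. This floor, here and below, takes each read as independent, which reads of the same pair are not. If both reads of a pair were counted, these fold limits are too high.

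From LOC_Os11g45560 to LOC_Os11g45770 no locus was higher in NIL-qigl1HD385 by the rule. LOC_Os11g45590 was the second most abundant locus of the 177 in each line. It had 165, 139 and 144 RPKM in NIL-qigl1HD385, against 173, 163 and 229 RPKM in NIL-qIGL1NIP, so that 1 NIL-qigl1HD385 library lay inside the range of the other line. LOC_Os11g45620 was expressed in NIL-qIGL1NIP only and lay just over the limit there, with 0.106 ± 0.0835 RPKM in NIL-qigl1HD385, against 0.511 ± 0.0778 RPKM in NIL-qIGL1NIP. The lines did not overlap at this locus, with 42 reads in NIL-qigl1HD385, against 207 in NIL-qIGL1NIP. Its log2 difference on RPKM + 0.5, -0.74, fell short of the 2-fold limit. The other expressed loci of this stretch, LOC_Os11g45560, LOC_Os11g45710, LOC_Os11g45740, LOC_Os11g45750 and LOC_Os11g45770, were expressed in both lines with overlapping libraries.

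The longest run covered 11 expressed loci from LOC_Os11g45790 to LOC_Os11g45990 and held the largest differences of the range. Its sum was 384, 340 and 352 RPKM in NIL-qigl1HD385, against 0.278, 0.465 and 0.286 RPKM in NIL-qIGL1NIP. That is 84020 reads in NIL-qigl1HD385, against 102 in NIL-qIGL1NIP. Every one of the 11 was expressed in NIL-qigl1HD385 only. Log2 differences ran from 1.46 to 8.22 with a median of 3.51. All but LOC_Os11g45990 averaged under 0.1 RPKM in NIL-qIGL1NIP.

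Its 4 most abundant loci carried most of the reads. LOC_Os11g45890 had 169, 155 and 168 RPKM in NIL-qigl1HD385, against 0.0846, 0.0235 and 0.0510 RPKM in NIL-qIGL1NIP. LOC_Os11g45840 had 80.2, 67.0 and 67.2 RPKM in NIL-qigl1HD385, against 0.0190, 0.0211 and 0.0458 RPKM in NIL-qIGL1NIP. In both, all 3 NIL-qIGL1NIP libraries held a few reads and none reached the 0.5 RPKM limit. LOC_Os11g45850 had 73.2, 57.8 and 57.5 RPKM in NIL-qigl1HD385, against 0.0393, 0 and 0 RPKM in NIL-qIGL1NIP, a log2 difference of 6.94 (SE 0.13). LOC_Os11g45820 had 35.01, 32.77 and 30.80 RPKM in NIL-qigl1HD385, against 0.0308, 0.0341 and 0 RPKM in NIL-qIGL1NIP, a log2 difference of 5.998 (SE 0.11). Replicate 1 was the highest NIL-qigl1HD385 library in all 4.

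The other 7 loci of the run were lower in level. LOC_Os11g45880 had 12.8, 13.1 and 14.0 RPKM in NIL-qigl1HD385 and 0 reads in NIL-qIGL1NIP, which places it at least 1346-fold higher on the floor of 3 reads. LOC_Os11g45920 had 5.37, 7.79 and 3.57 RPKM in NIL-qigl1HD385, against 0, 0 and 0.0383 RPKM in NIL-qIGL1NIP. The lines do not overlap at either locus, and the NIL-qigl1HD385 libraries lay closer together at LOC_Os11g45880. LOC_Os11g45790, LOC_Os11g45809, LOC_Os11g45864 and LOC_Os11g45924 averaged 0.879 to 2.52 RPKM in NIL-qigl1HD385 and at most 0.0458 RPKM in NIL-qIGL1NIP. LOC_Os11g45990 closed the run with 1.78, 0.404 and 3.80 RPKM in NIL-qigl1HD385, against 0.0931, 0.224 and 0.0935 RPKM in NIL-qIGL1NIP. Replicate 2 of NIL-qigl1HD385 came close to NIL-qIGL1NIP there, and limma did not call the locus. The run stepped over 7 loci expressed in neither line, and if such loci end a run, its longest unbroken part had 7 loci.

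**Figure D3:**
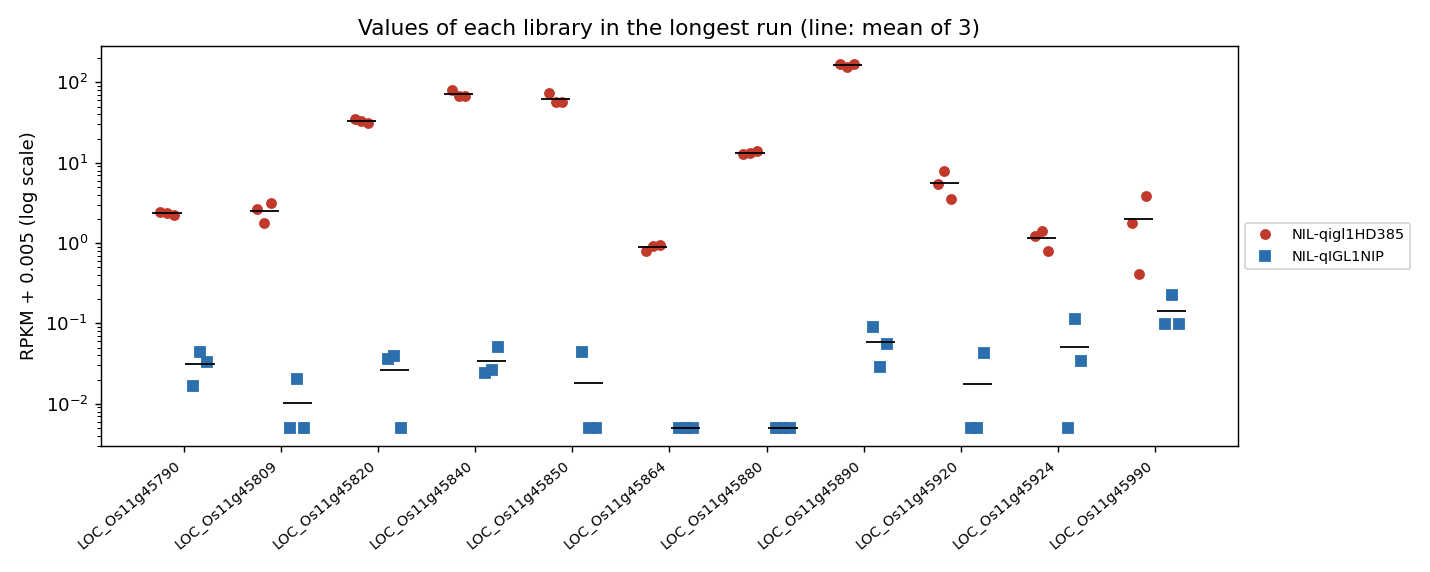
RPKM + 0.005 on a log scale (vertical axis) of each library at the 11 loci of the longest run, with a line at the mean of 3 libraries; circles are NIL-qigl1HD385 and squares NIL-qIGL1NIP, and a value of 0 sits at 0.005. The NIL-qigl1HD385 values lie between 0.404 and 169 RPKM and every NIL-qIGL1NIP value at or below 0.224 RPKM.

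Past the longest run, expression was weak and mixed. LOC_Os11g46010, LOC_Os11g46020 and LOC_Os11g46050 averaged 0.802, 0.544 and 0.523 RPKM in NIL-qigl1HD385, just over the limit, and 0.476, 0.438 and 0 RPKM in NIL-qIGL1NIP. None of the 3 met the rule for a difference. LOC_Os11g46070 and LOC_Os11g46200 then formed a run of 2 across 9 loci expressed in neither line. LOC_Os11g46070 had 4.41, 3.42 and 4.30 RPKM in NIL-qigl1HD385, against 0, 0.0241 and 0 RPKM in NIL-qIGL1NIP. LOC_Os11g46200 had 2.92 ± 0.106 RPKM in NIL-qigl1HD385, against 0.125 ± 0.0614 RPKM in NIL-qIGL1NIP (SD, n = 3). It held 1382 reads in NIL-qigl1HD385, against 59 in NIL-qIGL1NIP, so that a low level remained in each NIL-qIGL1NIP library. One of the loci stepped over, LOC_Os11g46160, has its row in the table between LOC_Os11g07890 and LOC_Os11g07900, so its number may not give its place.

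The next 4 expressed loci, LOC_Os11g46210, LOC_Os11g46220, LOC_Os11g46240 and LOC_Os11g46250, were expressed in both lines without a 2-fold difference. LOC_Os11g46240 had 20.5, 18.3 and 19.4 RPKM in NIL-qigl1HD385, against 19.2, 17.4 and 17.4 RPKM in NIL-qIGL1NIP, and the libraries overlapped. LOC_Os11g46210 averaged 1.41 RPKM in NIL-qigl1HD385, against 0.745 RPKM in NIL-qIGL1NIP, and its 3 values did not overlap, with a log2 difference of 0.62. Loci expressed in both lines without a 2-fold difference thus stood directly between runs of one-sided loci.

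LOC_Os11g46300 had 9.05, 9.02 and 8.66 RPKM in NIL-qigl1HD385, against 0.621, 0.466 and 0.386 RPKM in NIL-qIGL1NIP, a log2 difference of 3.25 (SE 0.14). It was the one-sided locus with the highest mean left in NIL-qIGL1NIP among those that met the rule, 0.491 RPKM, just under the limit. After it the locus numbers jump from 46300 to 46806, with no row analysed here in between. A stretch of 13 loci expressed in neither line, LOC_Os11g46806 to LOC_Os11g46950, followed with 49 reads in NIL-qigl1HD385, against 43 in NIL-qIGL1NIP. The run that LOC_Os11g46300 opened continued beyond it with LOC_Os11g46960, LOC_Os11g46970 and LOC_Os11g46980, at 1.98 ± 0.544, 1.84 ± 0.0460 and 2.31 ± 0.0945 RPKM in NIL-qigl1HD385 (SD, n = 3) and 0 reads in NIL-qIGL1NIP. On the floor of 3 reads these 3 neighbours were at least 111-fold, 95.3-fold and 388-fold higher in NIL-qigl1HD385.

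LOC_Os11g47120 was the most abundant locus of the range in NIL-qIGL1NIP and was lower in NIL-qigl1HD385. It had 121, 112 and 99.1 RPKM in NIL-qigl1HD385, against 347, 273 and 182 RPKM in NIL-qIGL1NIP, a log2 difference of -1.23 (SE 0.24). The lines did not overlap, but the NIL-qIGL1NIP libraries spread widely and limma did not call the locus, except without NIL-qIGL1NIP replicate 3 (log2 difference -1.48). Its expressed neighbours LOC_Os11g47010 and LOC_Os11g47130 were expressed in both lines with log2 differences of 0.21 and -0.10.

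A run of 5 began directly after these, LOC_Os11g47140, LOC_Os11g47160, LOC_Os11g47170, LOC_Os11g47180 and LOC_Os11g47320, with 13.6 ± 1.78 RPKM in NIL-qigl1HD385, against 0.317 ± 0.0620 RPKM in NIL-qIGL1NIP in sum (SD, n = 3). The most abundant of the 5 was LOC_Os11g47320, with 7.57, 5.75 and 6.90 RPKM in NIL-qigl1HD385, against 0.357, 0.338 and 0.228 RPKM in NIL-qIGL1NIP. LOC_Os11g47160, LOC_Os11g47170 and LOC_Os11g47180 had means of 2.41, 1.05 and 1.23 RPKM in NIL-qigl1HD385 and 0 reads in NIL-qIGL1NIP. LOC_Os11g47140 varied within its line, with 3.29, 0.917 and 2.24 RPKM in NIL-qigl1HD385, against 0.00782, 0 and 0.0189 RPKM in NIL-qIGL1NIP. As at LOC_Os11g45990, replicate 2 was the lowest NIL-qigl1HD385 library and limma made no call.

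Among the loci stepped over by that run, LOC_Os11g47310 and LOC_Os11g47290 lay just below the limit and pointed in opposite directions. LOC_Os11g47310 averaged 0.493 RPKM in NIL-qigl1HD385, against 0.144 RPKM in NIL-qIGL1NIP. LOC_Os11g47290 averaged 0.0270 RPKM in NIL-qigl1HD385, against 0.440 RPKM in NIL-qIGL1NIP. Its reads numbered 12 in NIL-qigl1HD385, against 201 in NIL-qIGL1NIP. In neither did the libraries of the lines overlap.

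LOC_Os11g47330, LOC_Os11g47350 and LOC_Os11g47370 came next and were expressed in both lines. LOC_Os11g47330 had 121, 109 and 98.2 RPKM in NIL-qigl1HD385, against 117, 92.4 and 60.9 RPKM in NIL-qIGL1NIP. LOC_Os11g47370 had 26.3, 24.5 and 26.4 RPKM in NIL-qigl1HD385, against 25.1, 27.3 and 23.2 RPKM in NIL-qIGL1NIP, a log2 difference of 0.03 (SE 0.10). The libraries of the lines overlapped at all 3 loci.

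In the run of LOC_Os11g47400, LOC_Os11g47410 and LOC_Os11g47447, no NIL-qIGL1NIP library held a single read. LOC_Os11g47410 had 4.16, 4.50 and 4.51 RPKM in NIL-qigl1HD385, at least 354-fold higher on the floor of 3 reads. LOC_Os11g47400 and LOC_Os11g47447 averaged 2.70 ± 0.427 and 0.688 ± 0.145 RPKM in NIL-qigl1HD385 (SD, n = 3). The run stepped over 14 loci expressed in neither line, LOC_Os11g47420 to LOC_Os11g47446, which together had 79 reads in NIL-qigl1HD385 and 117 in NIL-qIGL1NIP. By locus number LOC_Os11g47455 stood between this run and the next. Its row in the table lies between LOC_Os11g47430 and LOC_Os11g47432, so its number may not give its place. In row order it would break this run before LOC_Os11g47447, and the range still held 7 runs with 30 loci. LOC_Os11g47455 had 1.39, 0 and 0.790 RPKM in NIL-qigl1HD385, against 0.104, 0.173 and 0 RPKM in NIL-qIGL1NIP. Its libraries overlapped because NIL-qigl1HD385 replicate 2 had none of its reads.

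LOC_Os11g47460 and LOC_Os11g47574 made the last run. LOC_Os11g47460 was expressed in both lines, with 6.22, 10.8 and 12.3 RPKM in NIL-qigl1HD385, against 2.36, 2.65 and 1.80 RPKM in NIL-qIGL1NIP, a log2 difference of 1.85 (SE 0.27). LOC_Os11g47574 had 5.30, 5.86 and 6.25 RPKM in NIL-qigl1HD385 and 0 reads in NIL-qIGL1NIP, and was the last higher locus of the range.

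From LOC_Os11g47580 to the end, loci were expressed in neither line, met no rule for a difference or were lower in NIL-qigl1HD385. LOC_Os11g47660 had 0.276, 0 and 0.257 RPKM in NIL-qigl1HD385, against 1.05, 0.976 and 0.729 RPKM in NIL-qIGL1NIP. LOC_Os11g47670 was expressed in 2 of 3 NIL-qIGL1NIP libraries, with 0, 0.0397 and 0.0853 RPKM in NIL-qigl1HD385, against 4.68, 0 and 2.42 RPKM in NIL-qIGL1NIP. LOC_Os11g47710 had 125, 105 and 108 RPKM in NIL-qigl1HD385, against 87.9, 97.9 and 113 RPKM in NIL-qIGL1NIP, with overlap. The last locus, LOC_Os11g47750, had 1.15, 0.546 and 0.926 RPKM in NIL-qigl1HD385, against 3.52, 2.55 and 2.58 RPKM in NIL-qIGL1NIP, a log2 difference of -1.31 (SE 0.22) that limma did not call. Just outside the range, LOC_Os11g47760 averaged 1981 ± 120 RPKM in NIL-qigl1HD385, against 1038 ± 119 RPKM in NIL-qIGL1NIP, and LOC_Os11g47770 4.49 ± 1.13 and 4.25 ± 0.0785 RPKM in the same order (SD, n = 3 each). The lines did not overlap at LOC_Os11g47760, but its log2 difference of 0.94 fell short of the 2-fold limit. At LOC_Os11g47770 they overlapped.

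**Figure D4:**
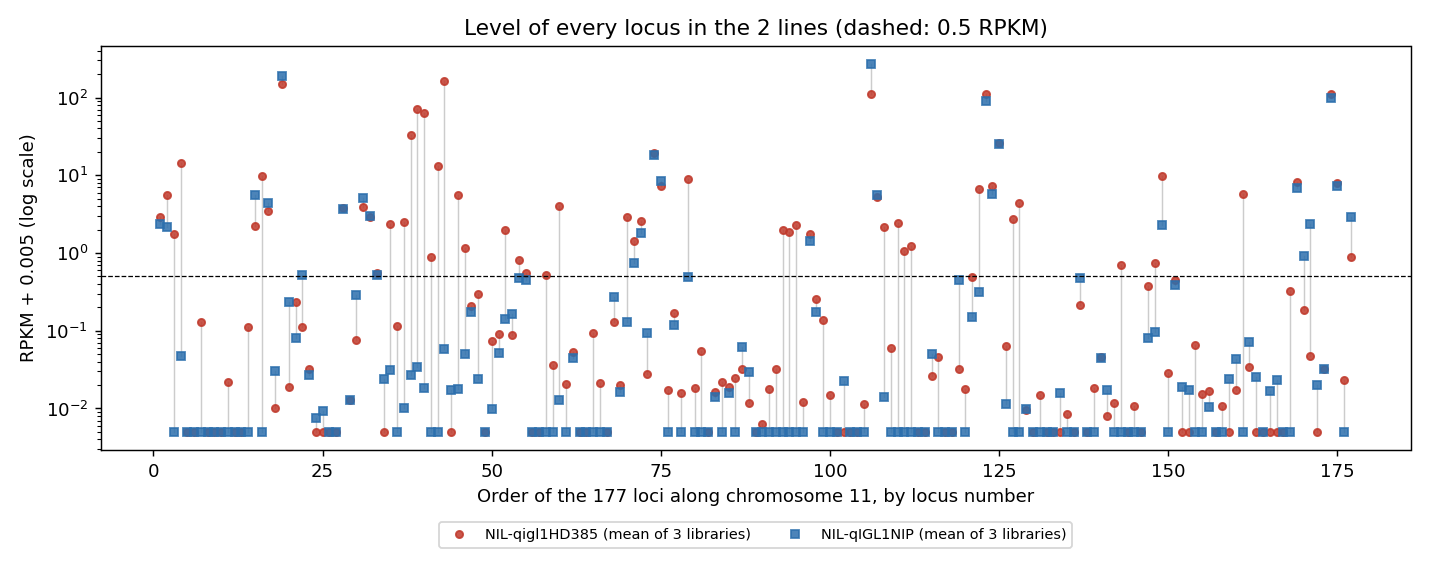
Mean RPKM + 0.005 on a log scale (vertical axis) of each of the 177 loci in NIL-qigl1HD385 (circles) and NIL-qIGL1NIP (squares), in order of locus number, joined by a grey line; a mean of 0 sits at 0.005 and the dashed line marks 0.5 RPKM. Loci with both symbols above the dashed line, such as LOC_Os11g45590 and LOC_Os11g46240, stand between groups in which only the circles lie above it.

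The 24 loci expressed in both lines were therefore mixed in among the one-sided ones. Of them, 19 did not meet the rule for a difference, and the libraries of the lines overlapped in 17 of these 19. Their log2 differences ran from -0.33 to 0.62 with a median of 0.06. LOC_Os11g45410 and LOC_Os11g47460 were higher in NIL-qigl1HD385, and LOC_Os11g45540, LOC_Os11g47120 and LOC_Os11g47750 lower. Leaving out NIL-qigl1HD385 replicate 2 left 2 lower loci in the range in place of 4.

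Below 0.5 RPKM in both lines lay 117 loci, of which 34 had 0 reads in all 6 libraries. Reads came from NIL-qigl1HD385 only at 35 loci, from NIL-qIGL1NIP only at 13 and from both lines at 35. The shares with reads in NIL-qigl1HD385 only and NIL-qIGL1NIP only were 29.9% and 11.1% in the range, against 13.6% and 14.4% of the 22946 such loci of the table. With at least 10 reads in all, 7 of 33 loci had every read in NIL-qigl1HD385, namely LOC_Os11g45460, LOC_Os11g45530, LOC_Os11g47039, LOC_Os11g47150, LOC_Os11g47250, LOC_Os11g47470 and LOC_Os11g47640, and 0 had every read in NIL-qIGL1NIP. In the whole table these shares were 1.18% and 1.58% of 7538 loci. LOC_Os11g47640 was the most abundant of the 7, with 0.305, 0.258 and 0.383 RPKM in NIL-qigl1HD385 and 0 reads in NIL-qIGL1NIP, at a floor of 0.0201 RPKM. Each of these 7 loci rests on 10 to 46 reads over the 3 NIL-qigl1HD385 libraries.

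The sum over all 177 loci was 1046 ± 72.8 RPKM in NIL-qigl1HD385, against 768 ± 72.8 RPKM in NIL-qIGL1NIP (SD, n = 3). The 31 higher loci accounted for 449 ± 22.9 RPKM in NIL-qigl1HD385, against 5.76 ± 0.663 RPKM in NIL-qIGL1NIP, and the 4 lower loci for 114 ± 10.5 and 277 ± 83.9 RPKM in the same order. The 25 expressed loci that met neither direction of the rule summed to 478 ± 42.2 RPKM in NIL-qigl1HD385, against 482 ± 23.3 RPKM in NIL-qIGL1NIP, which differ by less than the spread between libraries. Among the NIL-qigl1HD385 libraries, replicates 1, 2 and 3 were the lowest of their line at 11, 10 and 10 of the 31 higher loci.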

How the data were processed

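Per the labels' protocols, the libraries came from a stranded mRNA kit and were read from both ends on a DNBSEQ-T7. The authors deposited 1 RPKM value per locus and library; edgeR 3.12.1, Subread 1.5.1, featureCounts and Trimmomatic 0.36 appear, with no role, per the submitters' processing notes. Aligner, genome build and strand setting: not given in the sources used here, so overlapping, antisense and near-identical loci may share or lose reads.

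Library totals, gene lengths and whole reads were recovered from the RPKM values (Python 3.11.15); 100% of the values above 0 were whole within 4.16e-05 of a read. For loci with few reads the length and reads are the smallest possible. Floors of 3 reads cover counting error only. Limma 3.58.1 (R 4.3.3; eBayes moderation with trend, two-sided) was run on log2(RPKM + 0.5) for loci with a mean of at least 0.5 RPKM over the 6 libraries, which understates the change of low loci; it was tested on simulated data. SE values are limma's. Differences are NIL-qigl1HD385 minus NIL-qIGL1NIP.

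The loci, limits and rules were chosen with earlier results of these data known. Loci given with every library were those with a log2 difference of size 3 or more, those 2-fold lower in NIL-qigl1HD385, the 5 most abundant without a difference, the edges, and the most abundant one-sided locus under 0.5 RPKM; other loci given so were picked after their values were seen. Alternatives were pseudocounts, filters, scalings, limits, folds, run rules, voom, a replicate block and leaving out each library.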

Additional observations from a re-analysis of the deposited data

How the results depend on the processing

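Table row order, a limit of 10 recovered reads and the recount of the longest run elsewhere were alternatives added after seeing the data. The 27 loci called higher by limma numbered 14 under a filter at a mean of 2 RPKM (33 of the loci tested, fewer than 54) and 12 with the replicate number as a block, and 25 to 29 under the other settings of pseudocount, scaling, filter, variance trend and voom. The replicate numbers do not pair the libraries: deviations of same-numbered libraries correlated at -0.28, -0.25 and -0.41. The block ended the call of LOC_Os11g45920 (log2 difference 3.51). Loci called lower numbered 1 in place of 0 under quantile normalization, LOC_Os11g47750. Leaving out each library in turn gave 23 to 25 called higher, 0 to 1 called lower (1 without NIL-qIGL1NIP replicate 2 or 3), 2 to 5 lower by the 2-fold rule, 2 to 5 expressed in NIL-qIGL1NIP only (5 without NIL-qIGL1NIP replicate 3), and a longest run of 11 each time. That run had 7 loci when loci expressed in neither line end a run, 5 at a pseudocount of 1 and 5 at a 4-fold limit, at which 0 loci were lower. The median log2 difference was 2.20 at a pseudocount of 0.1 and 0.83 at 1. With a limit of 0.1 RPKM, 5 loci were expressed in NIL-qIGL1NIP only and 39 in both; with all 3 libraries at 0.5 RPKM, 1 in NIL-qIGL1NIP only; with 10 reads, 8 and 50. Without the most abundant locus of each line, the sums were 772 RPKM in NIL-qigl1HD385, against 501 RPKM in NIL-qIGL1NIP. The stricter filter tested fewer loci and the block spent degrees of freedom, but the cause of these shifts was not tested. Loci under 0.1 RPKM rest on few reads, so 0 reads there does not show absence.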
